A study of Saccharomyces cerevisiae with 8 samples.

Results

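Autophagy is the route by which a cell encloses its own contents in a double membrane, the autophagosome, and delivers them to the vacuole, the digestive compartment of yeast, for breakdown. The proteins that build the autophagosome carry the name Atg, and most were found in yeast screens. A kinase complex starts the process, Atg9 vesicles and a lipid transfer protein supply membrane, a lipid kinase marks it, a ubiquitin-like protein (Atg8) is coupled to it, and receptors tie chosen cargo to Atg8. Many ATG genes are known to be transcribed more when nutrients run out.

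The genes described here are the 36 genes whose single annotated symbol on the array is ATG followed by a number, out of 5656 genes with a single annotated symbol. Each is represented by its brightest probe set. ATG6 and ATG24 carry the names VPS30 and SNX4 in the annotation and are counted below among the partners, and ATG44 was not analysed here. The members lie on 13 chromosomes, and ATG34 and ATG19 are neighbours in the R64 gene table. Members brighter than the 30th percentile of the array on 2 or more of the 8 arrays were tested. That left 32 of the 36, beside 5283 genes tested in all. ATG4, ATG14, ATG16 and ATG29 lay below that percentile on all 8 arrays and were not tested. ATG39 lay above it on 0 of the 4 control arrays, and ATG20 and ATG23 on 1 each, so these 3 passed the filter through the treated cultures where they are high, and their calls were partly fixed by it.

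Transcripts of Saccharomyces cerevisiae were measured with 1 Affymetrix YG_S98 array per sample, in 4 groups of 2. A hem1 delta strain, which lacks the first enzyme of heme synthesis and makes heme only from supplied 5-aminolevulinic acid (ALA), was kept in YPD, a rich medium, for 16 h with ALA at 250 µM or with none. Both hem1 groups carry the deletion and both came from a 6 h culture with ALA. A wild type strain, given as BY45742, was grown in YPD for 12 h in air (normoxia) or in an anaerobic chamber (hypoxia), after a 6 h culture. Strain, time of growth and treatment differ together between the pairs of groups. For the wild type no label states that the arrays of a group came from separate cultures, so p-values measure the spread between these arrays, which may be technical.

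Values are MAS5 signals on a linear scale, and the trimmed mean was nearly the same on every array (500.4 to 500.6), so a signal is a share of the RNA on its array. In such bulk RNA a change in the number of cells of a kind and a change in RNA per cell cannot be told apart. Median signals ran from 98.1 to 159 per array and the 30th percentile from 26.6 to 48.7. HEM1 itself read 459.7 and 608 with ALA, 849 and 696 without it, 707 and 683 under normoxia and 1413 and 1613 under hypoxia, so its probe set does not single out the deletion strain. Mean 18S rRNA control signals were 1473 and 73.1 on the arrays without ALA and 214 and 2893 in hypoxia, against 75.1 to 232 on the control arrays. The ACT1 3′/5′ ratio, which reads RNA integrity, was 2.11 and 2.18 in hypoxia, 1.40 and 1.49 in normoxia, 1.86 and 1.57 with ALA and 1.81 and 1.77 without. The 4 genes specific to the MATalpha mating type lay above the 30th percentile on every array, with summed signals of 21274 and 22930 with ALA, 9955 and 11325 without, 25970 and 24807 under normoxia and 7165 and 6770.3 under hypoxia. The 4 genes specific to MATa summed to 236 and 195 with ALA, 614 and 686 without, 115 and 101 under normoxia and 227 and 283 under hypoxia, and STE2 among them lay below the 30th percentile on every array. The arrays at 1473 and 2893 are called the high 18S arrays below. The part of these values in the results below was not tested.

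In each treatment taken alone most ATG transcripts were called higher than in its control, and 17 of the 36 were called higher in both. Without ALA 24 of the 36 genes rose, none fell, 8 did not pass and 4 were not tested. In hypoxia 21 rose, ATG27 fell, 10 did not pass and 4 were not tested. The rises include ATG39 in both treatments, and ATG20 and ATG23 without ALA, whose calls were partly fixed by the filter. Among all genes tested 31.2% rose and 19.0% fell without ALA, and 31.4% rose and 25.2% fell in hypoxia. Each call is an adjusted p under 0.05 in the limma fit across all probe sets. At an unadjusted p under 0.05, 27 members were higher and 0 lower without ALA, and 22 higher and 1 lower in hypoxia. The share of all genes at the unadjusted threshold was not counted. Treated and control arrays did not overlap for 28 of the 32 tested members without ALA, all of them higher (among all genes tested 45.8% were higher and 31.7% lower in this sense), and in hypoxia for 26 higher members and for ATG27, which was lower (43.9% and 36.2%). With no filter on low signals, so that all 36 members were fitted, 25 rose without ALA and 22 in hypoxia. The share of all genes was not counted for that fit.

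**Figure D1:**
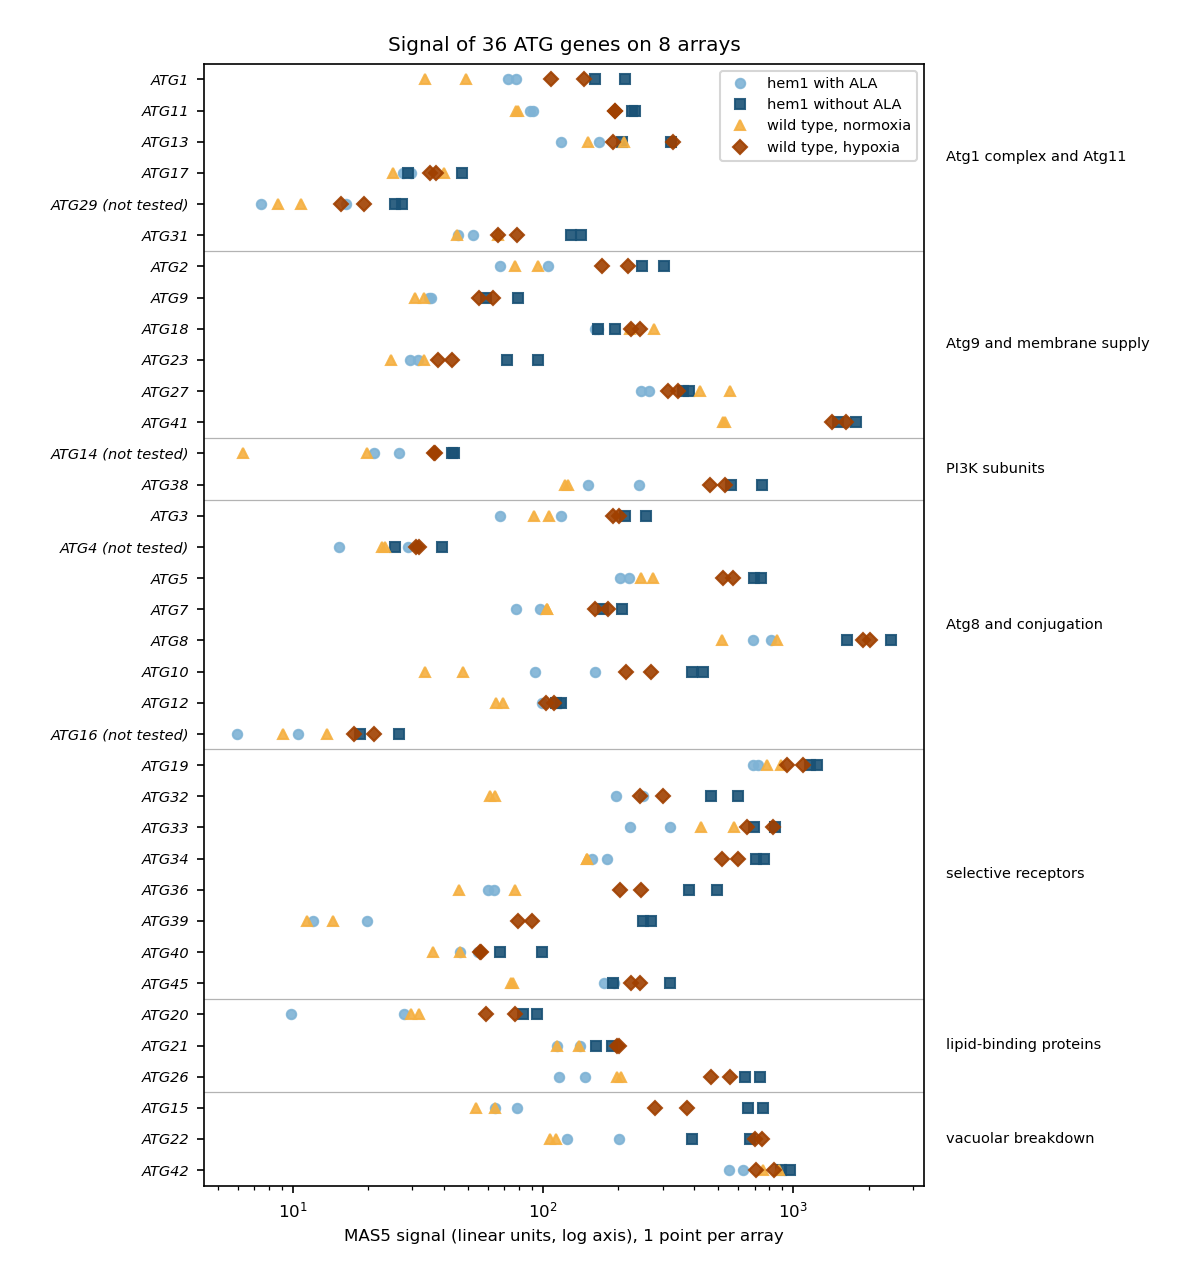
Signal of each of the 36 ATG genes (rows, grouped by role) on the 8 arrays, on a log axis of linear MAS5 units, with 1 point per array and 1 colour and shape per group. The arrays without ALA (dark squares) and in hypoxia (brown diamonds) lie to the right of the control arrays for most genes, while ATG41 is low in normoxia alone. Signals of different genes come from different probe sets and are not comparable with each other.

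The median log2 difference of the 32 tested ATG genes was 1.38 without ALA, against 0.16 for all genes tested, and 1.10 in hypoxia, against 0.12. With signals floored at the 30th percentile of their array the ATG medians were 1.29 and 1.08. In each treatment 29 of the 32 lay above the median of all genes. The scaling matters for these values, because the median of all genes moved with it: it was -0.09 without ALA and -0.19 in hypoxia with quantile normalization, -0.25 and -0.37 once arrays were centred on their medians, and -0.10 and 0.24 after scaling on the spiked control RNAs. In the same order the ATG medians were 1.02 and 0.62, 0.98 and 0.62, and 1.12 and 1.22.

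**Figure D2:**
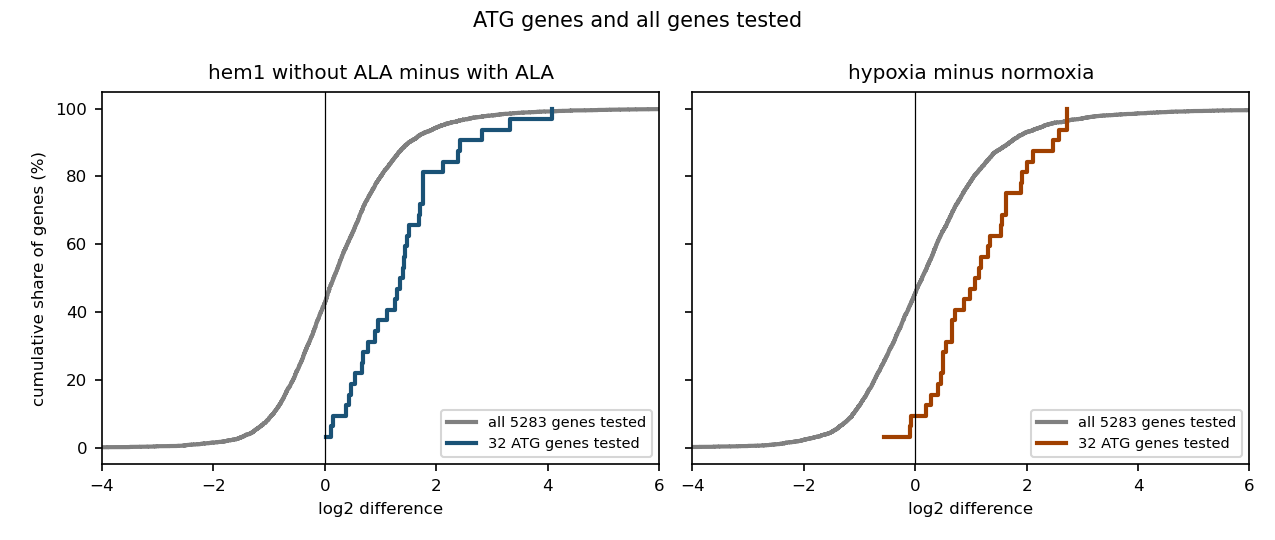
Cumulative share of genes (vertical axis, percent) against log2 difference (horizontal axis) without versus with ALA on the left and in hypoxia versus normoxia on the right. Grey lines are all 5283 genes tested and coloured lines the 32 ATG genes tested. The ATG lines lie to the right of the grey ones over most of their height, with medians of 1.38 against 0.16 and 1.10 against 0.12.

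By log2 mean, the group with the highest signal was hem1 without ALA for 28 of the 32 tested members, hypoxia for 2 (ATG21 and ATG22) and normoxia for 2 (ATG18 and ATG27). The lowest was normoxia for 18 and hem1 with ALA for 14. The same count over all genes was not made. Median signals of the arrays were likewise highest without ALA (157 and 159) and lowest under normoxia (98.1 and 106). Strain and growth time differ between these groups too. Between the arrays of a group the ATG genes differed by a median of 0.19 to 0.25 on the log2 scale, against 0.19 to 0.22 for all genes tested. The widest such gap was that of ATG20 with ALA, 1.50.

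The kinase complex that starts autophagy changed in part. ATG1, the kinase itself, read 77.8 and 72.1 with ALA and 212 and 161 without, and 33.6 and 48.9 under normoxia and 146 and 108 under hypoxia. Its treated arrays lay above all control arrays, and it rose 2.46-fold without ALA (adjusted p = 0.00461) and 3.10-fold in hypoxia (adjusted p = 0.00121). ATG11, the scaffold of selective autophagy, read 91.3 and 88.6 with ALA, 232 and 227 without, 79.0 and 78.1 under normoxia and 193 and 195 under hypoxia. The arrays of a group nearly coincided, and the rises were 2.55-fold and 2.47-fold (adjusted p = 3.8e-04 and 3.2e-04).

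Of the bulk autophagy scaffold, ATG31 rose 2.77-fold without ALA, from 52.3 and 45.5 to 142 and 129. In hypoxia its arrays, 78.8 and 65.8, overlapped those of normoxia, 45.1 and 65.9 (log2 difference 0.40, adjusted p = 0.210). ATG17, the central scaffold, lay near the 30th percentile throughout, at 25.0 to 47.2 over the 8 arrays, and passed in neither treatment. ATG13, the regulatory partner of Atg1, spread widely within groups (325 and 208 without ALA, 117 and 167 with ALA, 189 and 329 in hypoxia, 150.5 and 210.4 in normoxia) and did not pass either (log2 differences 0.89, adjusted p = 0.0580, and 0.49, adjusted p = 0.252). It passed without ALA when replicate 2 of that group was left out (adjusted p = 0.0401) and with the hem1 arrays alone (0.0449).

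Atg9 is the membrane protein of the vesicles that seed the autophagosome. ATG9 was dim with ALA, at 35.1 and 35.5, both below the 30th percentile, so that its fold is a lower bound, and read 79.3 and 59.2 without ALA (at least 1.89-fold, adjusted p = 0.0159), 30.6 and 33.5 under normoxia and 55.2 and 62.9 under hypoxia (1.84-fold, adjusted p = 0.0200). Its treated arrays did not overlap those of their own control. Both calls were lost with quantile normalization (adjusted p = 0.0863 and 0.297), median centring (0.0950 and 0.216) and without the high 18S arrays. The first was also lost with spike scaling (0.104). The first was lost too without replicate 1 or 2 with ALA (0.0600 and 0.0561) or replicate 1 without it (0.105). The second was lost without normoxia replicate 1 (0.0708) or hypoxia replicate 1 or 2 (0.0555 and 0.103). ATG2, the lipid transfer protein, rose 3.29-fold without ALA and 2.27-fold in hypoxia, the latter lost with quantile normalization (adjusted p = 0.0555) and without the high 18S arrays (0.0640). ATG18, which binds phosphatidylinositol phosphates and works with Atg2, passed in neither treatment (log2 differences 0.14 and -0.09). With median centring ATG18 passed as a fall in hypoxia (adjusted p = 0.0359).

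The proteins that move Atg9 behaved differently from each other. ATG23 read 29.4 and 31.6 with ALA, both dim, and 71.7 and 95.3 without (at least 2.28-fold, adjusted p = 0.00407). In hypoxia, where 1 of its 2 arrays lay above the 30th percentile, it did not pass (log2 difference 0.50, adjusted p = 0.172), and it passed with signals floored (0.0458). ATG27 read 264 and 247 with ALA, 381 and 362 without, 423 and 560.2 under normoxia and 317 and 348 under hypoxia. It is the one member with opposite calls, up 1.46-fold without ALA (adjusted p = 0.0365) and down 1.47-fold in hypoxia (adjusted p = 0.0302). Among all genes tested 1.65% had opposite calls. The rise of ATG27 was lost with quantile normalization (adjusted p = 0.332), median centring (0.497) and spike scaling (0.339), and each of the 4 hem1 arrays left out in turn ended it too (0.0827 to 0.139), as did each hypoxia array (0.0520 and 0.0521). Its fall was lost with spike scaling (0.144), with the wild type arrays alone (0.0557), without normoxia replicate 2 (0.182) and without hypoxia replicate 1 or 2 (0.130 and 0.0678). Without the high 18S arrays neither call held (0.152 and 0.0860).

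ATG41, which acts in Atg9 movement and is also known as ICY2, read 1636 and 1621 with ALA, 1514 and 1789 without, 522 and 532 under normoxia and 1431 and 1620.2 under hypoxia. The normoxia arrays stood alone at the low end, and the other 6 lay between 1431 and 1789. It rose 2.89-fold in hypoxia (adjusted p = 8.3e-05) and did not pass without ALA (log2 difference 0.02, SE 0.15, adjusted p = 0.941).

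The lipid kinase that marks the membrane is a complex of Vps34 with partners. ATG38, a subunit of its autophagy form, read 151 and 241 with ALA, 747 and 565 without, 126 and 123 under normoxia and 463 and 533 under hypoxia. Both treated groups lay clear of their controls, with rises of 3.40-fold and 4.00-fold (adjusted p = 7.0e-04 and 2.7e-04). ATG14, the subunit that defines this form, lay below the 30th percentile on all arrays, at 6.32 to 44.1.

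Of the genes that couple Atg8 to lipid, 5 of the 8 rose without ALA and 6 in hypoxia, and ATG4 and ATG16 were not tested. The shares of all genes tested that rose were 31.2% and 31.4%. ATG8 read 689.7 and 812 with ALA, 1644 and 2466 without, 858 and 518 under normoxia and 1909 and 2029 under hypoxia. All 4 treated arrays were above all 4 control arrays, and ATG8 rose 2.69-fold without ALA (adjusted p = 0.00308) and 2.95-fold in hypoxia (adjusted p = 0.00154). ATG5, the protein joined to Atg12, read 203 and 220.2 with ALA, 742 and 699 without, 246 and 276 under normoxia and 523 and 575 under hypoxia. Its rises were 3.40-fold and 2.10-fold (adjusted p = 7.6e-05 and 6.7e-04).

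ATG10, the conjugating enzyme of Atg12, read 161 and 93.1 with ALA, 435 and 393 without, 47.8 and 33.7 under normoxia and 214 and 271 under hypoxia. The groups formed 4 separate levels, and ATG10 rose 3.37-fold without ALA and 5.99-fold in hypoxia (adjusted p = 0.00174 and 1.8e-04). ATG7, the activating enzyme shared by Atg8 and Atg12, rose 2.18-fold and 1.65-fold, and ATG3, the conjugating enzyme of Atg8, 2.64-fold and 1.98-fold. The hypoxia calls of both were lost with quantile normalization (adjusted p = 0.322 for ATG7 and 0.136 for ATG3), median centring (0.353 and 0.125) and without the high 18S arrays (0.103 and 0.0965). They were lost without hypoxia replicate 2 as well (0.0877 and 0.0743), and that of ATG3 without normoxia replicate 1 (0.0609) or hypoxia replicate 1 (0.0577). ATG12, the second ubiquitin-like protein, read 98.7 and 117 with ALA, 113 and 118 without, 69.3 and 64.8 under normoxia and 111 and 102 under hypoxia. Its hem1 groups overlapped (log2 difference 0.10, adjusted p = 0.684), and its rise of 1.59-fold in hypoxia (adjusted p = 0.0182) was lost with quantile normalization (0.543) and median centring (0.453), without the high 18S arrays (0.0775), without normoxia replicate 2 (0.0673) and without hypoxia replicate 1 or 2 (0.0894 and 0.0534).

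**Figure D3:**
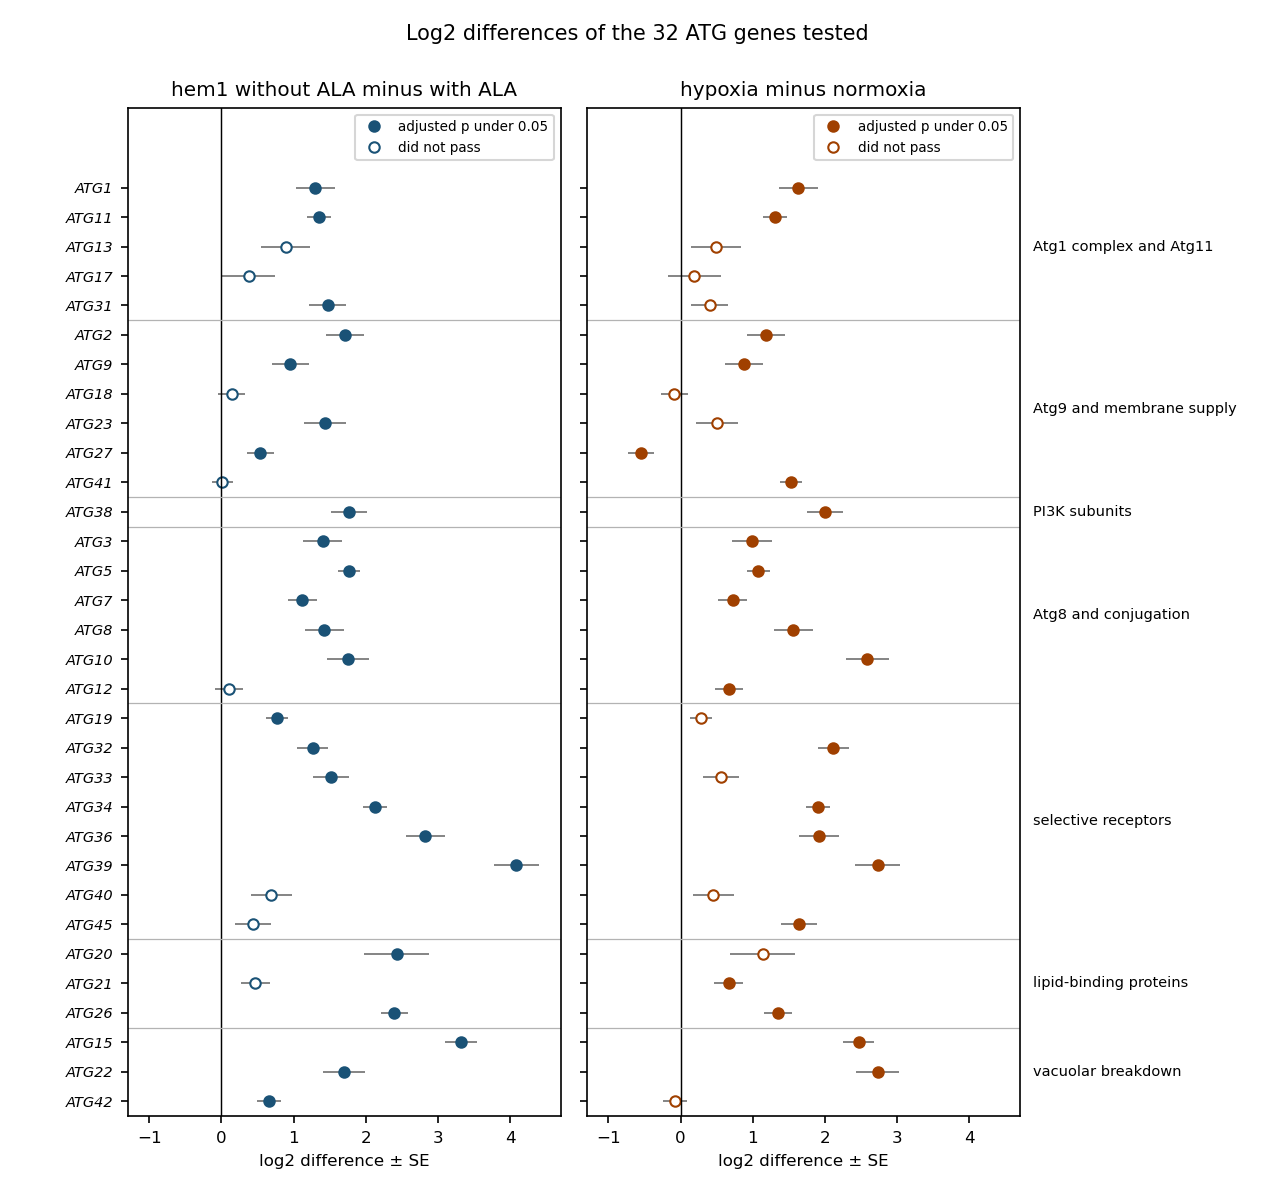
Log2 differences with their standard errors (horizontal axis) of the 32 ATG genes tested (rows, grouped by role) without versus with ALA on the left and in hypoxia versus normoxia on the right. Filled points have an adjusted p under 0.05 and open points do not. Among filled points ATG27 in hypoxia alone lies left of 0, and ATG15 lies at 3.32 on the left panel. The points of ATG9, ATG17, ATG20, ATG23 and ATG39 on the left are fitted values against dim controls. So are those of ATG17, ATG20, ATG23 and ATG39 on the right. Fewer than 2 of their control arrays lay above the 30th percentile, and their place to the right has no exact meaning.

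Receptors bind a cargo and tie it to Atg8. Of 8 genes, the receptors and ATG33, 6 rose without ALA and 5 in hypoxia, beside 31.2% and 31.4% of all genes tested. ATG39, the receptor for the nuclear envelope, read 19.7 and 12.0 with ALA and 14.4 and 11.3 in normoxia, all dim. The arrays without ALA reached 270.0 and 250.2, and those in hypoxia 79.4 and 90.6. Since both control groups were dim, its rises are bounds, at least 7.16-fold without ALA (adjusted p = 3.0e-05) and at least 2.95-fold in hypoxia (adjusted p = 1.7e-04). ATG39 passed the filter through the treated arrays alone, so these calls were partly fixed by it. ATG40, the receptor for the cortical endoplasmic reticulum, read 55.1 and 46.3 with ALA, 67.1 and 99.3 without, 36.1 and 46.5 under normoxia and 56.0 and 56.4 under hypoxia. Its treated arrays lay above their controls but it did not pass (log2 differences 0.69 and 0.46, adjusted p = 0.0686 and 0.196). It passed without ALA with signals floored (0.0331), without the intensity trend (0.0456) and without replicate 1 of that group (0.0428).

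ATG36, the peroxisome receptor, read 60.0 and 63.4 with ALA, 384 and 496 without, 45.9 and 76.8 under normoxia and 203 and 247 under hypoxia. It rose 7.08-fold without ALA and 3.78-fold in hypoxia (adjusted p = 1.1e-04 and 5.5e-04), with no overlap between treated and control arrays. Mitochondria are taken up through Atg32. ATG32 read 251 and 195 with ALA, 469 and 601 without, 64.0 and 61.3 under normoxia and 301 and 244 under hypoxia. It rose 2.40-fold and 4.33-fold (adjusted p = 0.00171 and 8.9e-05), and its hypoxia arrays overlapped those of hem1 with ALA.

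ATG33, a mitochondrial outer membrane protein needed for mitophagy in stationary phase, read 322 and 223 with ALA, 696 and 847 without, 428 and 581 under normoxia and 652 and 827 under hypoxia. It rose 2.87-fold without ALA (adjusted p = 0.00143) and did not pass in hypoxia (log2 difference 0.56, adjusted p = 0.0848). With spike scaling ATG33 passed in hypoxia as well (adjusted p = 0.0340).

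ATG19 and ATG34 are paralogs. Atg19 brings vacuolar enzymes such as aminopeptidase I and alpha-mannosidase to the vacuole in growing cells, and Atg34 carries alpha-mannosidase in starved ones. ATG34 read 179.7 and 157 with ALA, 710.4 and 762 without, 149 and 149 under normoxia and 518 and 601 under hypoxia, rises of 4.38-fold and 3.74-fold (adjusted p = 3.4e-05 and 4.2e-05). ATG19 read 724 and 691 with ALA, 1168 and 1249 without, 784 and 894 under normoxia and 946 and 1093 under hypoxia. It rose 1.71-fold without ALA (adjusted p = 0.00397), which did not hold with median centring (0.0583) or spike scaling (0.0557), and did not pass in hypoxia (0.28 on the log2 scale, adjusted p = 0.155). A further ATG19 probe set read at most 15.8 on any array and was not tested.

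ATG45, reported as a receptor for glycogen, read 192 and 175 with ALA, 189 and 322 without, 74.4 and 75.4 under normoxia and 243 and 224 under hypoxia. The hem1 groups overlapped and it did not pass without ALA (log2 difference 0.43, adjusted p = 0.180). Without replicate 1 without ALA, the array with the high 18S signal, it passed there (log2 difference 0.82, adjusted p = 0.0196). In hypoxia it rose 3.11-fold (adjusted p = 8.0e-04).

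Of the lipid-binding proteins, ATG20, a sorting nexin, was dim with ALA at 9.80 and 27.7 and read 94.1 and 83.3 without ALA (at least 2.44-fold, adjusted p = 0.00288). It read 31.9 and 29.5 under normoxia and 77.1 and 58.9 under hypoxia, and did not pass (log2 difference 1.14, adjusted p = 0.0619). It passed in hypoxia without either array with ALA (0.00908 and 0.0111), with signals floored (0.00102), with the pseudocount (0.0164) and with the wild type arrays alone (0.0152). ATG26, a sterol glucosyltransferase, read 147 and 116 with ALA, 737 and 639.9 without, 197 and 204 under normoxia and 469 and 558 under hypoxia, rises of 5.27-fold and 2.55-fold (adjusted p = 3.5e-05 and 4.9e-04). Its treated arrays were all above the control arrays. ATG21, which binds phosphatidylinositol phosphate, rose 1.58-fold in hypoxia, which did not hold with quantile normalization (adjusted p = 0.357), median centring (0.483), without the high 18S arrays (0.102), without normoxia replicate 2 (0.106) or without hypoxia replicate 1 or 2 (0.0756 and 0.0853), and did not pass without ALA (log2 difference 0.47, adjusted p = 0.0809).

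The genes for breakdown in the vacuole rose in most cases. ATG15, the lipase that opens delivered membranes, read 63.9 and 78.3 with ALA, 759 and 657 without, 53.7 and 63.9 under normoxia and 279 and 375 under hypoxia. These were rises of 9.98-fold and 5.53-fold (adjusted p = 1.5e-05 and 4.6e-05). Both other ATG15 probe sets rose too, by 2.41 and 3.01 on the log2 scale without ALA and by 2.51 and 1.74 in hypoxia.

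ATG22, a transporter that returns amino acids from the vacuole, read 125 and 201 with ALA, 672 and 394 without, 107 and 113 under normoxia and 753 and 701 under hypoxia. It rose 3.24-fold and 6.62-fold (adjusted p = 0.00205 and 1.3e-04), and its hypoxia arrays were above both arrays without ALA. ATG42, a vacuolar carboxypeptidase, read 630.4 and 554 with ALA, 971 and 897 without, 878 and 754 under normoxia and 710.0 and 836 under hypoxia. It rose 1.58-fold without ALA (adjusted p = 0.0115), which did not hold with median centring (0.249), spike scaling (0.131), without the high 18S arrays (0.0622), without replicate 2 with ALA (0.0708) or without replicate 1 without it (0.0533). In hypoxia its arrays overlapped (log2 difference -0.08, adjusted p = 0.706), and it passed as a fall with median centring (0.0240).

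The same 17 genes rose in both treatments, which is 70.8% of the 24 that rose without ALA and 81.0% of the 21 that rose in hypoxia. They are ATG1, ATG2, ATG3, ATG5, ATG7, ATG8, ATG9, ATG10, ATG11, ATG15, ATG22, ATG26, ATG32, ATG34, ATG36, ATG38 and ATG39, the last with calls partly fixed by the filter. Among all genes tested 21.4% rose in both. ATG13, ATG17, ATG18 and ATG40 passed in neither treatment. These comparisons share no arrays, but each gene's estimate of the spread is shared between them, so their calls are not independent.

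The calls were counted under 20 alternative settings. Symbols as in the platform annotation, among these settings, gave the same members and could not change a call. Calls of ATG20, ATG23 and ATG39 were partly fixed by the filter, which most settings keep. Of the 24 rises without ALA 17 held under all of them. ATG20, ATG23 and ATG31 held under 19 and were not tested under the stricter filter, and ATG9, ATG19, ATG27 and ATG42 lost their call under at least 1. Of the 22 calls in hypoxia 15 held under all, all of them rises, while ATG2, ATG3, ATG7, ATG9, ATG12, ATG21 and ATG27 lost their call under at least 1. After quantile normalization 22 genes rose without ALA and 15 in hypoxia, with median centring 20 and 16, and with spike scaling 20 and 22. The share of all genes called higher was 23.5% and 21.6%, 19.8% and 18.1%, and 20.4% and 32.3% in the same order, and the share called lower 26.7% and 33.4%, 33.9% and 41.3%, and 24.6% and 18.7%. Without the high 18S arrays, the first without ALA and the second in hypoxia, 22 rose and 0 fell without ALA and 15 rose and 0 fell in hypoxia. Among all genes 22.5% rose and 14.7% fell, and 21.7% rose and 19.7% fell.

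**Figure D4:**
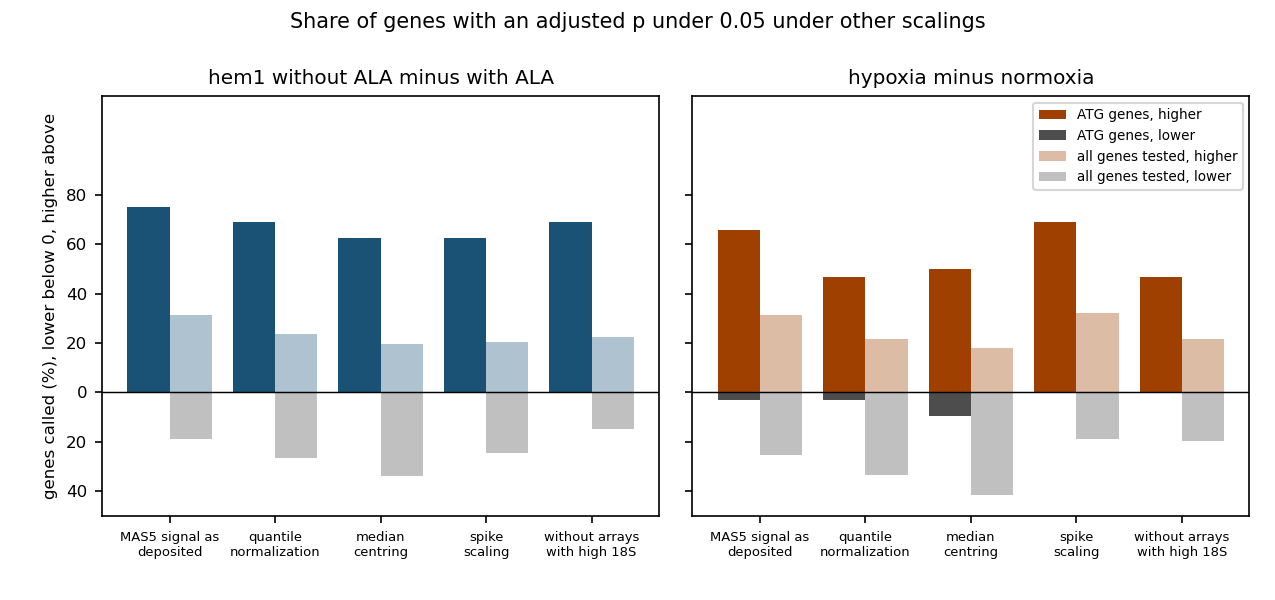
Share of genes called higher (above 0) or lower (below 0), in percent of genes tested, for the 32 ATG genes (solid bars) and all 5283 genes (pale bars) under the signals as deposited, 3 other scalings and without the high 18S arrays. The solid bars above 0 range from 62.5% to 75.0% without ALA and from 46.9% to 68.8% in hypoxia, and are taller than the pale bars beside them under each of the 5 settings.

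Control cultures were compared next, since hem1 with ALA and the wild type in air were the starting points. Of the 36 ATG genes 6 were higher and 4 lower in hem1 with ALA, among all genes tested 12.6% and 9.14%. The higher ones were ATG32 (3.53-fold, adjusted p = 9.6e-04), ATG41 (3.09-fold, 4.0e-04), ATG10 (3.05-fold, 0.00751), ATG45 (2.44-fold, 0.00926), ATG1 (1.85-fold, 0.0493) and ATG12 (1.60-fold, 0.0397). The lower ones were ATG27 (1.91-fold, 0.00954), ATG33 (1.86-fold, 0.0347), ATG26 (1.54-fold, 0.0472) and ATG18 (1.53-fold, 0.0490). Under all 20 alternatives ATG10, ATG32 and ATG41 held. ATG45 held in 19, losing its call without replicate 1 with ALA (adjusted p = 0.0554). Of the 20 alternatives 15 ended the call of ATG1, 14 that of ATG18, 15 that of ATG26, 8 that of ATG33 and 2 that of ATG27, and of the 19 run for ATG12 13 ended its call. Leaving out 1 array at a time raised the adjusted p to as much as 0.201 for ATG1, 0.184 for ATG12, 0.212 for ATG18, 0.230 for ATG26, 0.190 for ATG33 and 0.0604 for ATG27, the last without replicate 2 with ALA. No lower call held under spike scaling, where the median of all genes was 0.44 higher in hem1 with ALA. Among all genes 7.38% were higher and 10.3% lower with quantile normalization. The shares were 7.34% and 17.8% with median centring, 27.1% and 2.82% with spike scaling, and 8.27% and 7.12% without the high 18S arrays.

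The difference of the responses asks whether a gene's log2 difference without ALA departed from that in hypoxia. Strain and time differ with the treatment here. It passed for 4 of the 36 members, 2 with a higher value without ALA (9.81% of all genes tested) and 2 with a lower one (6.45%). ATG41 (-1.52, SE 0.21, adjusted p = 0.00415) rose in hypoxia from a low normoxia signal and read 1636 and 1621 with ALA, within the range of the arrays without it. ATG45 (-1.20, SE 0.35, adjusted p = 0.0494) also had its lowest arrays in normoxia. ATG27 (1.09, SE 0.26, adjusted p = 0.0237) moved in opposite directions, and ATG26 (1.05, SE 0.27, adjusted p = 0.0299) rose in both, by more without ALA. Under the 19 alternatives run for this comparison ATG41 held in each. With spike scaling ATG26 (adjusted p = 0.172) and ATG27 (0.170) did not pass, and ATG45 did not pass in 14 of the 19, among them quantile normalization (0.0779) and median centring (0.0628). Leaving out 1 array at a time ended the call of ATG26 for 5 arrays (adjusted p = 0.0533 to 0.107), of ATG27 for 6 (0.0505 to 0.0847) and of ATG45 for 7 (0.0857 to 0.151). Among all genes 11.1% were higher and 5.85% lower in this difference with quantile normalization. The shares were 12.2% and 5.64% after median centring, 2.33% and 10.4% with spike scaling, and 2.50% and 2.56% without the high 18S arrays. For ATG32 (-0.85, adjusted p = 0.0863) and ATG15 (0.85, adjusted p = 0.0924) the difference did not pass. It passed for ATG32 with spike scaling (0.0309) and for ATG15 with quantile normalization (0.0291) and the pseudocount (0.0484). Of the other ATG15 probe sets 1 did pass (1.28, adjusted p = 0.0227) and 1 did not (-0.10, adjusted p = 0.920). Both control groups of the latter were dim, so its value is not exact. For ATG39 no value is given, since both of its control groups were dim.

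Genes that work with the Atg proteins under other names were counted from a list of 59, of which 58 were found and tested. Without ALA 29 rose and 1 fell, and in hypoxia 24 rose and 6 fell, with median log2 differences of 0.60 and 0.41. All genes tested gave 31.2% up and 19.0% down without ALA, and 31.4% up and 25.2% down in hypoxia, and the 24 of 58 are 41.4%. The balance depended on the scaling. With median centring 17 rose and 7 fell without ALA, and 14 rose and 16 fell in hypoxia, with medians of 0.20 and -0.08, beside 19.8% up and 33.9% down, and 18.1% up and 41.3% down, of all genes. Without the high 18S arrays 22 rose and 1 fell without ALA, and 17 rose and 2 fell in hypoxia, beside 22.5% and 14.7%, and 21.7% and 19.7%, of all genes. The lists that follow hold 5 to 18 genes each, and their counts are descriptions to be set beside the same shares. Genes were mostly named by the smallest adjusted p in each treatment. A gene named for 1 treatment may also have passed in the other.

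Of 5 genes of the lipid kinase complexes and endosomal sorting 3 rose without ALA and 1 in hypoxia. VPS30, the gene also called ATG6, read 119 and 109 with ALA, 347 and 371 without, 342 and 344 under normoxia and 239.9 and 285 under hypoxia. It rose 3.14-fold without ALA (adjusted p = 1.5e-04) and was at 0.39 below normoxia on the log2 scale in hypoxia without passing (adjusted p = 0.0777), and it passed there as a fall with quantile normalization (0.00732) and median centring (0.00205). VPS15, the regulatory kinase of the complex, rose 2.53-fold without ALA and VPS34, its catalytic subunit, 2.35-fold. The one that rose in hypoxia was VPS38, of the endosomal form, at least 2.78-fold (adjusted p = 0.00854), which lay above the 30th percentile on both hypoxia arrays and 1 normoxia array alone and so passed the filter where it is high, which did not hold without the high 18S arrays (0.0999).

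Among 8 cargo and vacuolar hydrolase genes 4 rose without ALA, and 3 rose and 1 fell in hypoxia. AMS1, the alpha-mannosidase that Atg19 and Atg34 carry, read 375 and 338 with ALA, 1956 and 1647 without, 152 and 139 under normoxia and 2277 and 2144 under hypoxia. It rose 5.04-fold and 15.2-fold (adjusted p = 1.8e-05 and 7.1e-07). PRB1, vacuolar proteinase B, rose 3.84-fold without ALA and by 1.93 on the log2 scale in hypoxia (adjusted p = 1.2e-04 and 7.8e-05). APE4, a cytosolic aminopeptidase carried to the vacuole, fell 1.56-fold in hypoxia, which did not hold with spike scaling (adjusted p = 0.0824) or without the high 18S arrays (0.136).

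Of 10 tethering and fusion genes 5 rose and 1 fell without ALA, and 5 rose and 3 fell in hypoxia, where 25.2% of all genes fell. With median centring 3 rose and 3 fell without ALA, and 2 rose and 5 fell in hypoxia. VAM3 (1.93-fold) and VAM7 (3.03-fold), of the vacuolar fusion machinery, rose without ALA. MON1 (2.54-fold) and CCZ1 (1.95-fold), which activate the vacuolar GTPase Ypt7, rose in hypoxia. MON1 and CCZ1 also rose without ALA (1.91-fold and 1.51-fold, adjusted p = 0.0102 and 0.0276). YPT7 itself fell in both, from 924 and 766 to 499.9 and 485 without ALA (1.71-fold, adjusted p = 0.00580) and from 1283 and 1375 to 338 and 405 in hypoxia (3.59-fold, adjusted p = 5.5e-05). Both falls passed under each of the 3 other scalings. VAC8, a vacuolar membrane protein that anchors the Atg1 complex, fell 1.47-fold in hypoxia, which did not hold with spike scaling (adjusted p = 0.109) or without the high 18S arrays (0.0639).

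Of 18 nutrient-signalling genes 10 rose without ALA and 9 in hypoxia, and none fell. With median centring 6 rose and 1 fell without ALA, and 7 rose and 1 fell in hypoxia. All genes then gave 19.8% up and 33.9% down, and 18.1% up and 41.3% down. With quantile normalization 1 fell in each treatment as well, and with spike scaling none. The values that follow are for the signals as deposited. LST8 (3.40-fold) and TCO89 (2.86-fold), both of TOR complex 1, which holds autophagy back in fed cells, were the 2 with the smallest adjusted p without ALA (7.0e-05 and 2.1e-04). In hypoxia these were SCH9, a kinase downstream of TOR (3.55-fold, 8.3e-05), and RIM15, a kinase of stationary phase entry (2.72-fold, 2.3e-04). Without ALA RIM15 rose 1.95-fold too (adjusted p = 0.00244), and SCH9 did not pass (0.355).

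Of 10 transcription regulators 6 rose without ALA, and 6 rose and 2 fell in hypoxia. With median centring 2 rose without ALA, and 2 rose and 2 fell in hypoxia. All genes then gave 19.8% up and 33.9% down without ALA, and 18.1% up and 41.3% down in hypoxia. With spike scaling 2 rose without ALA, and 7 rose and 1 fell in hypoxia, where 32.3% of all genes rose. With the signals as deposited MSN4, a stress activator, rose 2.46-fold and GAT1, an activator of nitrogen-regulated genes, 2.27-fold without ALA. RPH1, known as a repressor of ATG genes in fed cells, read 363 and 412 with ALA, 544 and 494 without, 155 and 152 under normoxia and 427 and 434 under hypoxia. It rose 2.80-fold in hypoxia (adjusted p = 1.2e-04) and did not pass without ALA (adjusted p = 0.0536). SIN3, a corepressor, rose 2.02-fold in hypoxia, which did not hold with median centring (adjusted p = 0.0627) or without the high 18S arrays. With the signals as deposited SIN3 rose 1.71-fold without ALA as well (adjusted p = 0.0250). PHO23, a known repressor of ATG9, fell 2.47-fold in hypoxia (adjusted p = 0.00115), and the deacetylase gene RPD3 fell 1.58-fold (0.0344), which did not hold with spike scaling (0.144) or without the high 18S arrays (0.102). Among 7 other selective autophagy factors CUE5, a receptor for ubiquitin-marked proteins, rose 1.53-fold without ALA, which did not hold with quantile normalization (adjusted p = 0.159), median centring (0.286) or spike scaling (0.175), and none passed in hypoxia in this limma fit.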

How the data were processed

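The 8 arrays were processed with MAS5 per the submitters' processing notes (version not given in the sources used here), and the table deposited by the authors holds their signal as intensity on a linear scale. Of 9275 probe sets other than 60 controls, 6504 had 1 gene in the platform annotation and 328 several, and all 6504 matched the RefSeq table of assembly R64, used for names. log2 signals of the 7081 probe sets that passed the filter went into limma 3.58.1 (R 4.3.3) with a mean for each group and an intensity trend (4 residual and 4.36 prior degrees of freedom). Tests were two-sided, with Benjamini-Hochberg adjustment over the 7081. Every log2 difference was computed here from the deposited intensities. Folds are 2 to the power of the log2 difference. A group with fewer than 2 arrays above the 30th percentile is dim, and a fold against it is the ratio to the higher of that percentile and its signal on each array, given as at least. The fit was checked on simulated data. Members and lists were chosen with earlier results of these data known. Every member is accounted for, and values of all arrays are given for ATG1, ATG8, ATG9, ATG11, ATG19, ATG32, ATG33, ATG34, ATG39, ATG40 and ATG41, for the members with the largest called differences in each direction, and for others whose groups bear on a call. Of the partner lists, up to 2 members per direction with the smallest adjusted p were named. VPS34, outside that rule, was chosen after its values were seen, and ATG45 was placed among the receptors after the annotation was read. The number of arrays limits the precision. Alternatives were quantile normalization, centring each array on its median, scaling on the 9 spiked control probe sets, other filters, a floor, a pseudocount, no trend, only the groups compared, mean of probe sets, leaving out each array, and leaving out the arrays with high 18S control signal. Figures were drawn with matplotlib 3.10.9.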

Additional observations from a re-analysis of the deposited data

Results flagged for a closer look

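The log2 difference of 4 ATG genes without ALA departed from that in hypoxia in the limma test of the difference, with strain and growth time differing along with the treatment. The differences were 1.05 for ATG26, 1.09 for ATG27, -1.52 for ATG41 and -1.20 for ATG45. These are 2 higher and 2 lower of the 32 tested (6.25% each), beside 9.81% and 6.45% of all genes tested. Only ATG41 held under all 19 alternatives. ATG26 lost its call in 7 of them, ATG27 in 8 and ATG45 in 14. Spike scaling ended the calls of ATG26 and ATG27, and quantile normalization and median centring that of ATG45. Leaving out single arrays also ended the calls of these genes. For ATG41 and ATG45 the normoxia arrays were the lowest of the 8. The arrays with ALA overlapped those without it for both genes, and against hypoxia they lay above for ATG41 and below for ATG45.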

How the results depend on the processing

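The counts of ATG genes that rose without ALA (20 to 25 over the alternatives) and in hypoxia (15 to 23) stayed within 1.5 times of the values reported. The single fall in hypoxia became 3 with median centring, and 0 with spike scaling, with the arrays of those groups alone and without the high 18S arrays (at an unadjusted p under 0.05: 0, 1 and 1). The 4 genes lower in hem1 with ALA became 7 with median centring, 0 with spike scaling (1 unadjusted), 2 with no filter, with the floor and with a pseudocount of 32, and 1 without the intensity trend, with the arrays of those groups alone and without the high 18S arrays. In the difference of the responses the 2 higher genes became 7 with quantile normalization, 4 with the floor, 5 with the pseudocount, and 0 with spike scaling and without the high 18S arrays (0 and 7 unadjusted). The 2 lower genes became 1 with quantile normalization, median centring, no filter, the floor, the pseudocount, no trend and without those arrays. Leaving out 1 array at a time gave 21 to 24 rises and 0 falls without ALA, 16 to 22 rises and 0 to 1 falls in hypoxia, 4 to 5 higher and 1 to 2 lower in the control cultures, and 0 to 3 higher and 1 to 2 lower in the difference of the responses. A lone array was then taken to vary like the other groups. Averaging the probe sets of a gene ended the ATG19 call without ALA (log2 difference 1.57, adjusted p = 0.0897). Symbols as in the platform annotation gave the same members, so that setting repeats the reported fit. The cause was not tested for the other changes. No paired analysis was possible because the labels give no replicate numbers that link arrays across groups. Signals near the 30th percentile limit what can be said of ATG4, ATG14, ATG16, ATG17 and ATG29.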
